A study of Mus musculus with 24 samples.

Results

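Transcripts of 10 genes of the hypoxia response and glycolysis (Hif1a, Egln3, Slc2a1, Hk2, Pfkp, Pfkfb3, Ldha, Vegfa, Adm and Bnip3), chosen by name, were examined in mouse skin, out of 18368 genes in the deposited expression table. The choice of these genes, and of the pathway lists below, was made with earlier results of these data known. Skin came from 12 CD1 mice, an outbred stock, which were 7 weeks old and carried no transgene or drug treatment named in the labels. Each mouse gave a library of unwounded skin and a library of a wound collected 3 days after a 2 mm full-thickness punch, both from a single body site, with 4 mice each at abdomen, back and cheek. The unwounded skin lay next to the wound of the same mouse, so it is control tissue of an injured animal. Cheek mice had a single wound and abdomen and back mice had a pair, and whether a library pools wounds of a mouse is not stated in the sources used here. All tissue was whole skin, so a lower level can come from fewer cells of a type or from less RNA per cell, and these cannot be told apart. Whole-tissue marker genes of epidermis, macrophages and vessel endothelium were present in every library.

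Cells that run short of oxygen stabilise the transcription factor subunit HIF-1α, encoded by Hif1a, because prolyl hydroxylases such as EGLN3 no longer mark it for degradation. HIF-1 then raises the transcription of glucose transporters, glycolytic enzymes and secreted factors that act on blood vessels, and Egln3 is itself a HIF target. Skin wounds lose local blood supply, and the keratinocytes and white blood cells that enter them are known for a high use of glucose. Hypoxia acts on HIF-1α mainly through the stability of the protein, which RNA-seq does not measure. Expression is given in FPKM, a number of fragments scaled by transcript length and by library size, that is a level per transcript length, so that levels of different genes can be set side by side.

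HIF-1 binds a short core element in DNA, written ACGTG or GCGTG. The 250 bases before an annotated start are shown for 4 members that rose in wounds and 2 that did not pass the test there. The places of this element can so be read in both kinds. Sequences are from RefSeq (GRCm38.p6), are printed 5′ to 3′ on the strand of the gene, and have every match to either core, on either strand, in capitals. Slc2a1, Egln3, Adm and Pfkp rose, and Ldha and Bnip3 did not pass the test. The Slc2a1 window is chr4:119108495-119108744 on the plus strand, Egln3 is chr12:54203875-54204124 on the minus strand, Adm is chr7:110627407-110627656 on the plus strand, and Pfkp is chr13:6648772-6649021 on the minus strand. The Ldha window, the one of its 2 annotated starts with more matches, is chr7:46845554-46845803 on the plus strand, and that of Bnip3 is chr7:138909507-138909756 on the minus strand. The Pfkp and Ldha windows lie within the annotated span of the gene, not upstream of it.
Slc2a1: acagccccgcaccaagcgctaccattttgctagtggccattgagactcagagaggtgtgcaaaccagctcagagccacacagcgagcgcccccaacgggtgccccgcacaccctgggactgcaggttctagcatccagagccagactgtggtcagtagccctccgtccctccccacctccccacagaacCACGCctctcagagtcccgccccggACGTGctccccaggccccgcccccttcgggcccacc
Egln3: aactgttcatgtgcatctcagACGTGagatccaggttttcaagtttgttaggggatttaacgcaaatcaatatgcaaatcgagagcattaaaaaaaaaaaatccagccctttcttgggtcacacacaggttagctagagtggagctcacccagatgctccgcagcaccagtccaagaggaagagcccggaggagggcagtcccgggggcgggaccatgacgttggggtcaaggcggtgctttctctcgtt
Adm: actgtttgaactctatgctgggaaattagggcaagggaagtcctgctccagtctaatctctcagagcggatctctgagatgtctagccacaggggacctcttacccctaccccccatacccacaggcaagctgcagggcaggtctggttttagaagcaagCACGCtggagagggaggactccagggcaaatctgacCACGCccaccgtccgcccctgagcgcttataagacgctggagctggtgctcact
Pfkp: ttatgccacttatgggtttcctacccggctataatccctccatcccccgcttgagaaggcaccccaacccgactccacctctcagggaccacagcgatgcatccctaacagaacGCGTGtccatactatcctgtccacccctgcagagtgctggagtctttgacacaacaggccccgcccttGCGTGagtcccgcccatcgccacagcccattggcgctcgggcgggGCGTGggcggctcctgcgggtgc
Ldha: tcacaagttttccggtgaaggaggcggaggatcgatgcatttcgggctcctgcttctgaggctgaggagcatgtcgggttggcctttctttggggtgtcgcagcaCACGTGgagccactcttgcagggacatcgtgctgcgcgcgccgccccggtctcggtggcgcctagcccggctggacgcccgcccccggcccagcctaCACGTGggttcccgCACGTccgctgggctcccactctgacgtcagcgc
Bnip3: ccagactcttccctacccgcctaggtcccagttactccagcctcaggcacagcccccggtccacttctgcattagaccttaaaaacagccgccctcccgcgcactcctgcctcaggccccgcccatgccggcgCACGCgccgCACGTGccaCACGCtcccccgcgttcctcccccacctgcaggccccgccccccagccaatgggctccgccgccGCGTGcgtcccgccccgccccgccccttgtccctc

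All 10 members matched, in 13 windows, since Pfkfb3, Ldha and Vegfa have 2 annotated starts each. A core of either form stood in 12 of the 13 windows (92.3%), against 38.6% of 32851 windows of the same length over all genes. The window without a match was that of Vegfa at chr17:46032378-46032627, which adjoins the upstream end of the annotated gene. The Vegfa window with a match, chr17:46025164-46025413, lies within the annotated gene, as do the printed windows of Pfkp and Ldha. Counting both strands, so that the palindrome CACGTG counts as 2 matches of ACGTG, the printed windows held 2 matches for Slc2a1, 1 for Egln3, 2 for Adm, 3 for Pfkp, 5 for Ldha and 5 for Bnip3. Windows with 4 or more matches made up 2.58% of all windows. The richest windows of the set were the printed ones of Ldha and Bnip3, genes that did not pass the wound test at any site. The other Ldha window, chr7:46846832-46847081, held 1 match. The window of Egln3, which rose at every site, held a single match. A match is a description of letters, not of binding. Bases outside these windows were not searched, and a part of the element in the wound effects was not tested.

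FPKM values summed to between 490830 and 608888 per library, with 15781 to 16577 genes above 0, and replicate libraries of a group correlated across tested genes with r between 0.940 and 0.988. Read depth is unknown, and no pair of libraries held identical values. Skeletal muscle markers took 3.44 and 3.75% of the summed FPKM in unwounded abdomen of mice 1 and 4 and 0.606% or less in mice 2 and 3. The share was 3.35 to 5.06% in unwounded back and 2.83 to 5.77% in unwounded cheek, and 0.364 to 1.59% in the wounds. Unwounded cheek of mouse 4 was high in growing hair follicle genes, with a summed level of 3749 FPKM over 8 genes, against 3.55 to 21.1 in the other cheek mice. Wound effects and site calls that changed their call or direction without these 3 mice are given below in both forms.

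Of the 10 members, 6 rose in the wounds at every site: Hif1a, Egln3, Slc2a1, Pfkp, Vegfa and Adm. Hk2, Ldha, Bnip3 and Pfkfb3 passed the test at no single site. Wound and unwounded skin of the same mice were compared with limma on log2(FPKM + 0.5), with a term for each mouse and p adjusted over 14423 genes. The members called higher were 6 of 10 at each site, where the wound raised 16.9% (abdomen), 28% (back) and 19.7% (cheek) of all tested genes. The median wound effect of the 10 members on the log2 scale was 0.47, 0.78 and 0.65 (abdomen, back, cheek), beside −0.01, 0.07 and 0.01 for all tested genes. In the mean over the 3 sites 7 were called higher, against 33.3% of all genes. No member fell, while 16% of all genes fell at abdomen, 17.9% at back, 16.9% at cheek and 29.4% in the mean. At an adjusted p under 0.001 the members called higher were 1 at abdomen (3.92% of all genes), 6 at back (10%) and 3 at cheek (6.5%).

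**Figure D1:**
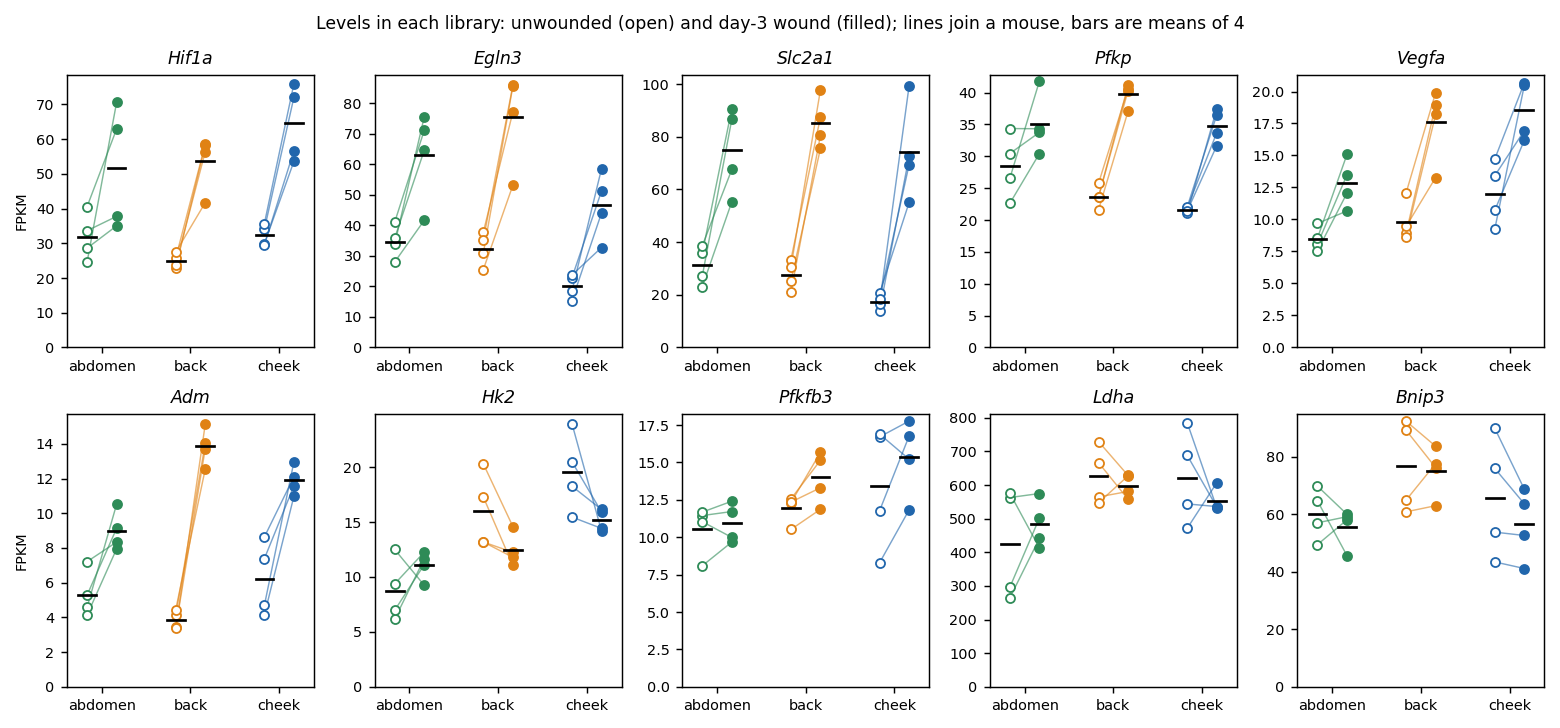
Levels in FPKM (vertical axis, from 0) of the 10 genes in each of 24 libraries by site, with unwounded skin as open and wound as filled points, lines joining a mouse and bars at the mean of 4. For Slc2a1, Egln3, Vegfa and Adm the wound points lie above all unwounded points of the same site, and Ldha, Hk2 and Bnip3 overlap at every site. The share of all genes without such overlap was not computed.

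Hif1a encodes the oxygen-regulated subunit of HIF-1. Its level in unwounded abdomen was 24.6, 40.5, 28.6 and 33.6 FPKM in mice 1 to 4, and 70.6, 62.9, 35.0 and 37.8 in their wounds. Back skin had 25.7, 23.0, 23.8 and 27.4 FPKM unwounded and 58.5, 58.4, 56.4 and 41.7 in wounds, and cheek had 29.9, 29.5, 34.0 and 35.6 against 53.6, 56.6, 72.0 and 75.9. All 12 mice were higher in the wound, and the groups did not overlap in back and cheek but did in abdomen, where mice 3 and 4 rose least. Here and for the members below, overlap only describes the libraries, since the share of all genes without overlap was not computed. Abdomen had a log2 wound effect of 0.65 (SE 0.18, limma adjusted p = 0.0158), back of 1.08 (adjusted p = 0.000458) and cheek of 0.98 (adjusted p = 0.00127). The abdomen call was lost without mouse 1, at 0.36 (limma adjusted p = 0.0625), and with that site fitted alone (adjusted p = 0.0954).

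Egln3, the prolyl hydroxylase that is induced by HIF, rose at every site. Unwounded abdomen had 41.1, 33.9, 35.9 and 27.99 FPKM and the wounds 71.2, 75.5, 64.6 and 41.7. Unwounded back had 37.8, 35.3, 25.6 and 30.9 FPKM against 77.2, 85.9, 53.2 and 85.7 in wounds. Cheek had the lowest mean in both states, with 22.9, 18.6, 15.4 and 23.7 FPKM unwounded and 51.2, 58.6, 44.1 and 32.8 in wounds. Wounds stood above unwounded skin without overlap at each site and in 12 of 12 mice. The mean wound effect was 1.07 on the log2 scale (SE 0.09, 2.1-fold, limma adjusted p = 7.56e-07), and the folds at abdomen, back and cheek were 1.78, 2.29 and 2.27.

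Slc2a1 encodes GLUT1, the glucose transporter of epidermis and of activated white blood cells, and was the member with the largest mean wound effect. Unwounded abdomen had 35.7, 27.1, 38.6 and 23.1 FPKM, and the wounds 90.6, 86.7, 67.6 and 55.3. Unwounded back had 33.4, 30.5, 21.0 and 25.3 FPKM and its wounds 87.5, 97.9, 80.6 and 75.6. Unwounded cheek was lowest, at 20.6, 14.0, 16.6 and 18.5 FPKM, while its wounds reached 55.1, 72.6, 99.4 and 69.5. The lowest wound of the 12, at 55.1 FPKM, was above the highest unwounded library, at 38.6. At abdomen the log2 wound effect was 1.26 (limma adjusted p = 0.000234), at back 1.63 (adjusted p = 1.55e-05) and at cheek 2.04 (adjusted p = 3.46e-06), which is 2.39-, 3.1- and 4.11-fold. Slc2a1 was the one member that passed an adjusted p under 0.001 in abdomen.

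Levels of Slc2a1 among abdomen wounds followed the order of mice 1 to 4, as did the summed level of 4 wound-edge keratin genes (14682, 7399, 6351 and 2107 FPKM) and of 7 neutrophil markers (2390, 1197, 689 and 346 FPKM). The macrophage sum in those wounds ran otherwise, at 1438, 2092, 1877 and 2744 FPKM. In back wounds the order did not match, since the keratin sum was highest in mouse 3 (8841, 9255, 10924 and 6174 FPKM) and the neutrophil sum lowest there (1541, 1323, 1044 and 1162). Cheek wounds had the highest Slc2a1, keratin sum (4241, 6312, 11994 and 8939 FPKM) and neutrophil sum (1009, 825, 1381 and 556) in mouse 3. Unwounded abdomen had 575 to 836 FPKM of the keratin sum and 8.45 to 37.8 of the neutrophil sum. All 4 keratin genes, all 7 macrophage markers and all 7 neutrophil markers rose in the mean over sites, and their part in the result for Slc2a1 was not tested.

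Pfkp, the platelet-type isozyme of phosphofructokinase, which commits sugar phosphate to glycolysis, rose 1.49-fold in the mean over sites. Unwounded cheek spanned only 21.1 to 22.0 FPKM in its 4 mice, and cheek wounds had 33.7, 37.4, 36.5 and 31.6. Back rose from 21.6, 23.6, 25.8 and 23.6 FPKM to 37.1, 40.3, 40.6 and 41.1, without overlap. Abdomen overlapped, with 26.6, 34.4, 30.4 and 22.6 FPKM unwounded and 41.8, 34.3, 33.8 and 30.4 in wounds, and in mouse 2 the pair of libraries had almost the same level. Its log2 effect at abdomen was 0.30 (SE 0.09, limma adjusted p = 0.0248), at back 0.74 (5.67e-05) and at cheek 0.67 (0.000164). The abdomen call was lost without mouse 1 (limma adjusted p = 0.132), without mouse 4 (0.101), with the site fitted alone (0.109) and under quantile normalization (0.0622). Without mice 2 and 3 and cheek mouse 4 the abdomen effect was 0.53 (limma adjusted p = 0.00549).

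Vegfa and Adm encode secreted peptides that act on blood vessels, vascular endothelial growth factor A and adrenomedullin. Vegfa was at 8.07, 8.55, 7.55 and 9.69 FPKM in unwounded abdomen and at 13.5, 15.1, 12.1 and 10.7 in its wounds. In back it was at 8.93, 12.1, 8.67 and 9.46 FPKM against 19.0, 19.9, 18.2 and 13.3, and in cheek at 13.4, 14.7, 9.24 and 10.7 against 16.9, 20.7, 20.5 and 16.2. Wound and unwounded libraries did not overlap at any site. The log2 effect of Vegfa was 0.57, 0.81 and 0.62 in abdomen, back and cheek, with limma adjusted p of 0.00875, 0.00056 and 0.00432.

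Adm was the lowest-expressed member in both states by its median, and its largest fold was in back. Back skin had 4.12, 3.42, 3.36 and 4.45 FPKM unwounded and 14.0, 13.7, 15.1 and 12.6 in wounds, 3.32-fold higher on the log2(FPKM + 0.5) scale. Abdomen rose from 4.58, 5.28, 7.21 and 4.13 FPKM to 10.5, 9.13, 8.34 and 7.95. Cheek rose from 8.63, 7.38, 4.14 and 4.69 FPKM to 12.1, 11.6, 10.98 and 12.96. No wound library overlapped the unwounded libraries of its site, and all 12 mice rose. Its log2 effect at abdomen was 0.73 (limma adjusted p = 0.00696), at back 1.73 (9.25e-06) and at cheek 0.94 (0.0012). Without abdomen mice 2 and 3 and cheek mouse 4, the members called were 5 in abdomen, where Vegfa was lost at 0.42 (limma adjusted p = 0.180), and 6 each in back and cheek.

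Hk2 encodes an inducible hexokinase that is also plentiful in muscle. Unwounded abdomen had 9.37, 6.16, 6.96 and 12.5 FPKM and its wounds 12.3, 11.6, 11.1 and 9.24, so that 3 mice were higher in the wound and mouse 4 lower. All 8 mice of the other sites were lower in the wound. Back had 13.2, 20.3, 13.2 and 17.3 FPKM unwounded and 11.8, 14.6, 12.2 and 11.1 in wounds, and cheek had 20.5, 24.0, 15.4 and 18.3 against 15.9, 14.2, 14.4 and 16.1. The log2 effect at abdomen was 0.36 (95% interval −0.01 to 0.74), at back −0.34 (−0.71 to 0.04) and at cheek −0.34 (−0.72 to 0.04), none of which passed the test (limma adjusted p = 0.123, 0.131 and 0.142). Without abdomen mouse 4 all passed, with 0.63 at abdomen (limma adjusted p = 0.00965), −0.34 at back (0.0419) and −0.34 at cheek (0.0480), and the back effect also passed with that site fitted alone (0.0318). Without abdomen mice 2 and 3 and cheek mouse 4 the abdomen effect turned to −0.02 (limma adjusted p = 0.947), beside −0.34 at back (0.0815) and −0.40 at cheek (0.0916).

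Ldha encodes the lactate dehydrogenase subunit that favours the formation of lactate, and was the highest-expressed member in either state. Unwounded abdomen split into 563 and 576 FPKM in mice 1 and 4 and 265 and 296 in mice 2 and 3, while its wounds had 575, 441, 502 and 413. Back had 565, 730, 547 and 667 FPKM unwounded and 581, 629, 627 and 558 in wounds, and cheek had 689, 786, 471 and 544 against 535, 533, 607 and 536. The wounds spanned a narrower range than unwounded skin at each site, and 6 of 12 mice were higher in the wound. The mean log2 effect was 0.02 with a 95% interval of −0.22 to 0.26 (limma adjusted p = 0.889). At abdomen the effect was 0.26 (limma adjusted p = 0.32) and turned to −0.22 (0.497) without mice 2 and 3 and cheek mouse 4, and the mean then was −0.16 (0.237).

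Abdomen mice 2 and 3, which were low in Ldha and Hk2, were those with few muscle transcripts. The sum of 12 muscle markers was 19305, 635, 3406 and 18384 FPKM in unwounded abdomen of mice 1 to 4, 17569 to 27349 in unwounded back and 15054 to 30339 in unwounded cheek. In wounds it was 2062 to 8544 FPKM, and 11 of the 12 markers fell in the mean over sites. Within unwounded back and within unwounded cheek, mouse 2 had the highest muscle sum and the highest Hk2, Ldha and Bnip3, and mouse 3 the lowest muscle sum and the lowest Ldha. Abdomen wounds ran the other way, with muscle sums of 2062, 3037, 5201 and 6541 FPKM in mice 1 to 4, where Hk2 was highest in mouse 1 and lowest in mouse 4, as was Ldha. The part of muscle in the results for Hk2, Ldha and Bnip3 was not tested.

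**Figure D2:**
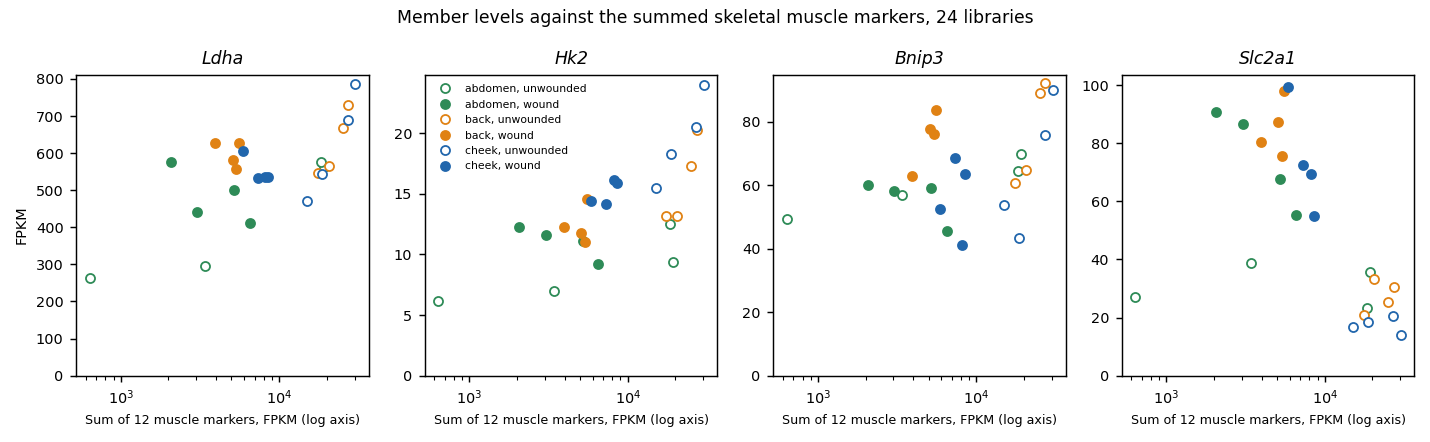
Levels of Ldha, Hk2, Bnip3 and Slc2a1 (vertical axes, FPKM from 0) against the summed level of 12 skeletal muscle markers (horizontal axis, FPKM, logarithmic) in 24 libraries, open for unwounded and filled for wound. The 2 unwounded abdomen libraries with 635 and 3406 FPKM of muscle markers have the lowest Ldha and Hk2. All wounds lie at 55.1 FPKM or more of Slc2a1, within a range of 2062 to 8544 FPKM of muscle markers. The part of muscle in the level of Slc2a1 was not tested.

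Pfkfb3 encodes an enzyme that makes the activator of phosphofructokinase. It ranged from 8.09 to 16.9 FPKM over the unwounded libraries (median 11.7) and from 9.68 to 17.8 over the wounds (median 12.9), and overlapped at every site. Its log2 effects of 0.06, 0.22 and 0.23 at abdomen, back and cheek did not pass the test at a single site, but the mean of 0.17 did (SE 0.06, limma adjusted p = 0.0279), with 10 of 12 mice higher. That call was lost under median-ratio scaling (limma adjusted p = 0.107), quantile normalization (0.205) and without the mouse term (0.159), as well as without abdomen mouse 1, back mouse 1 or 2, or cheek mouse 3 or 4, and without abdomen mice 2 and 3 and cheek mouse 4 together (0.0539).

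Bnip3 encodes a mitochondrial protein that marks mitochondria for removal by autophagy and is a much-used HIF target. It ranged from 43.4 to 92.3 FPKM over the unwounded libraries (median 64.8) and from 41.1 to 83.6 over the wounds (median 61.5). In cheek all 4 mice were lower in the wound, from 75.9, 89.9, 53.8 and 43.4 FPKM to 63.6, 68.7, 52.6 and 41.1. The log2 effects at abdomen, back and cheek were −0.11, −0.02 and −0.19 (limma adjusted p = 0.494, 0.924 and 0.219), and the mean was −0.10 (95% interval −0.25 to 0.04). The mean effect was called lower under quantile normalization, at −0.19 (limma adjusted p = 0.0409), and without abdomen mice 2 and 3 and cheek mouse 4, at −0.20 (0.0304).

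**Figure D3:**
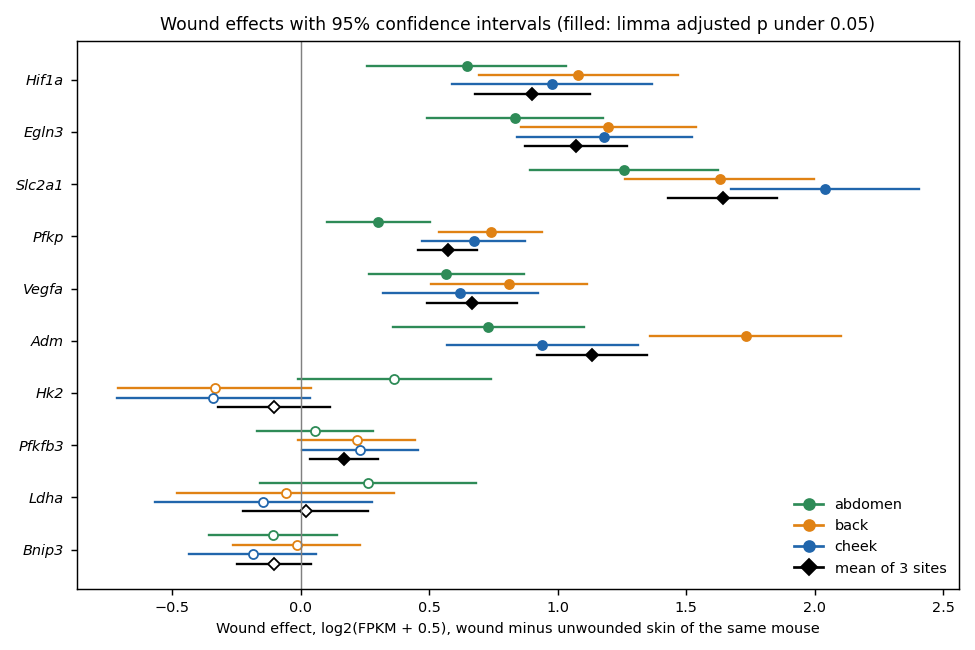
Wound effects on log2(FPKM + 0.5) (horizontal axis) of the 10 genes by site and as the mean of 3 sites, with 95% confidence intervals, where filled points passed a limma adjusted p under 0.05. Hif1a, Egln3, Slc2a1, Pfkp, Vegfa and Adm are filled and above 0 at every site, with Slc2a1 in cheek at 2.04 and Adm in back at 1.73.

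Whether the wound effect differed between sites was tested directly with a moderated F test, which 3 of 14423 genes passed (0.0208%). No member passed, and the smallest adjusted p was that of Adm (F 9.47, unadjusted p = 0.003, limma adjusted p = 0.228). At an unadjusted p under 0.05 there were also Pfkp, Hk2 and Slc2a1 (limma adjusted p = 0.266, 0.299 and 0.302). The effect on Adm was 1.00 log2 larger in back than in abdomen (SE 0.24, limma adjusted p = 0.137), and the effect on Slc2a1 was 0.78 larger in cheek than in abdomen (SE 0.24, limma adjusted p = 0.297). Without abdomen mouse 1 Pfkp passed the F test (limma adjusted p = 0.0489).

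In unwounded skin 3 members differed between abdomen and cheek, where 2.57% of all genes did (1.33% higher in cheek, 1.23% lower). Hk2 was 1.15 log2 higher in cheek (SE 0.21, limma adjusted p = 0.0175), Slc2a1 was −0.81 (SE 0.18, limma adjusted p = 0.0412) and Egln3 −0.78 (SE 0.16, limma adjusted p = 0.0312), lower in cheek. The 4 libraries of each site did not overlap for any of these genes, nor for Pfkp, which was not called (limma adjusted p = 0.103). Hk2 from abdomen to back, and Hif1a, Slc2a1 and Egln3 from back to cheek, also did not overlap and were not called. The share of all genes without overlap was not computed for any comparison, wound effects included. The 3 calls from abdomen to cheek were lost in 5 (Hk2), 13 (Slc2a1) and 6 (Egln3) of 22 other settings, leaving out each mouse included. No member passed between abdomen and back (2.67% of all genes did), where Hk2 came nearest at 0.86 (limma adjusted p = 0.0517), or between back and cheek (1.05%). Over all tested genes the median shift was −0.12 from abdomen to back and 0.14 from back to cheek; after median-ratio scaling Egln3 was called lower in cheek than in back, at −0.82.

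Among the wounds, Adm was higher in back than in abdomen by 0.60 log2 (SE 0.09, limma adjusted p = 0.0169), in a comparison where 1.27% of all genes differed (0.506% higher in back). Between abdomen and cheek wounds 10.8% of all genes differed (7.52% higher in cheek), and 4 members were higher in cheek. These were Hk2 at 0.44 (limma adjusted p = 0.0239), Pfkfb3 at 0.47 (0.0451), Vegfa at 0.52 (0.0376) and Adm at 0.39 (0.0265). Hk2, Vegfa and Adm did not overlap between these sites, and Pfkfb3 did. Bnip3 did not overlap between abdomen and back wounds, yet was not called there (limma adjusted p = 0.187). No member passed between back and cheek wounds (2.5% of all genes did). Of 22 other settings, the calls from abdomen to cheek wounds were lost in 5 (Hk2), 15 (Pfkfb3), 7 (Vegfa) and 8 (Adm). The Adm call from abdomen to back wounds was lost in 8. The comparisons between sites share libraries. All 8 calls between sites were lost when abdomen mouse 3 alone was left out, and when abdomen mice 2 and 3 and cheek mouse 4 were left out no member differed between sites in either state.

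A further view compared each member with the other isozymes of its step, as its share of their summed FPKM, which does not depend on the scaling of a library. Of the sum of Slc2a1, Slc2a3 and Slc2a4, Slc2a1 held 64.7% ± 17.2 (SD, n = 4) at unwounded abdomen, 41.4% ± 4.7 at back and 28.1% ± 7.1 at cheek. In the wounds it held 87.8% ± 4.5, 87.5% ± 1.9 and 77.5% ± 7.0. The share rose in 12 of 12 mice by 39.5 percentage points on average, by an exact two-sided sign-change permutation test (p = 0.000488, the smallest 12 mice can give; adjusted over 7 sets 0.00171). Slc2a4, the insulin-responsive transporter of muscle and fat, fell from 6.4 to 60.9 FPKM in unwounded skin to 3.22 to 20.4 in wounds.

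The share of Egln3 among the 3 prolyl hydroxylases rose by 18.6 points in 12 of 12 mice (adjusted exact permutation p = 0.00171), from 34.9, 31.2 and 22.0% in unwounded abdomen, back and cheek to 49.0, 52.4 and 42.6%. Pfkp rose by 15.4 points among the 3 phosphofructokinases (adjusted exact permutation p = 0.00615), higher in 10 of 12 mice. Back went from 9.3% ± 2.7 to 33.4% ± 3.0, and cheek from 9.0% ± 2.3 to 24.8% ± 2.3 (SD, n = 4). In unwounded abdomen it held 17.2, 53.7, 41.6 and 11.2% in mice 1 to 4, and the muscle isozyme Pfkm was at 116, 13.2, 27.1 and 168 FPKM there. Mice 2 and 3, whose Pfkp share fell, were those low in muscle markers.

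Hk2 lost 12.4 points among the hexokinases (adjusted exact permutation p = 0.00427), lower in 10 of 12 mice, with all 8 mice of back and cheek lower and 2 of 4 in abdomen. Hk1, the constitutive hexokinase, rose in 12 of 12 mice, and Hk3, the isozyme of white blood cells, did too. Ldha gained 6.26 points over Ldhb (adjusted exact permutation p = 0.00228; higher in 11 of 12 mice), and Ldhb fell in 12 of 12 mice while the level of Ldha did not pass the test. Pfkfb3 gained 4.59 points in its family of 4 (adjusted exact permutation p = 0.0103), and Bnip3 against its relative Bnip3l moved by −0.83 points (exact permutation p = 0.552). With 4 mice the sign-change test cannot pass the threshold at a single site. None of 21 comparisons of share changes between sites passed (smallest exact permutation p = 0.0286, adjusted 0.15). That p is the smallest that 4 against 4 mice can give, so adjustment left little room to pass, and no conclusion is drawn. Slc2a1 from abdomen to back and to cheek, and Pfkp and Ldha from back to cheek, reached it. Muscle expresses Slc2a4, Pfkm and Hk2, and the part of the fall in muscle markers in these shares was not tested.

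**Figure D4:**
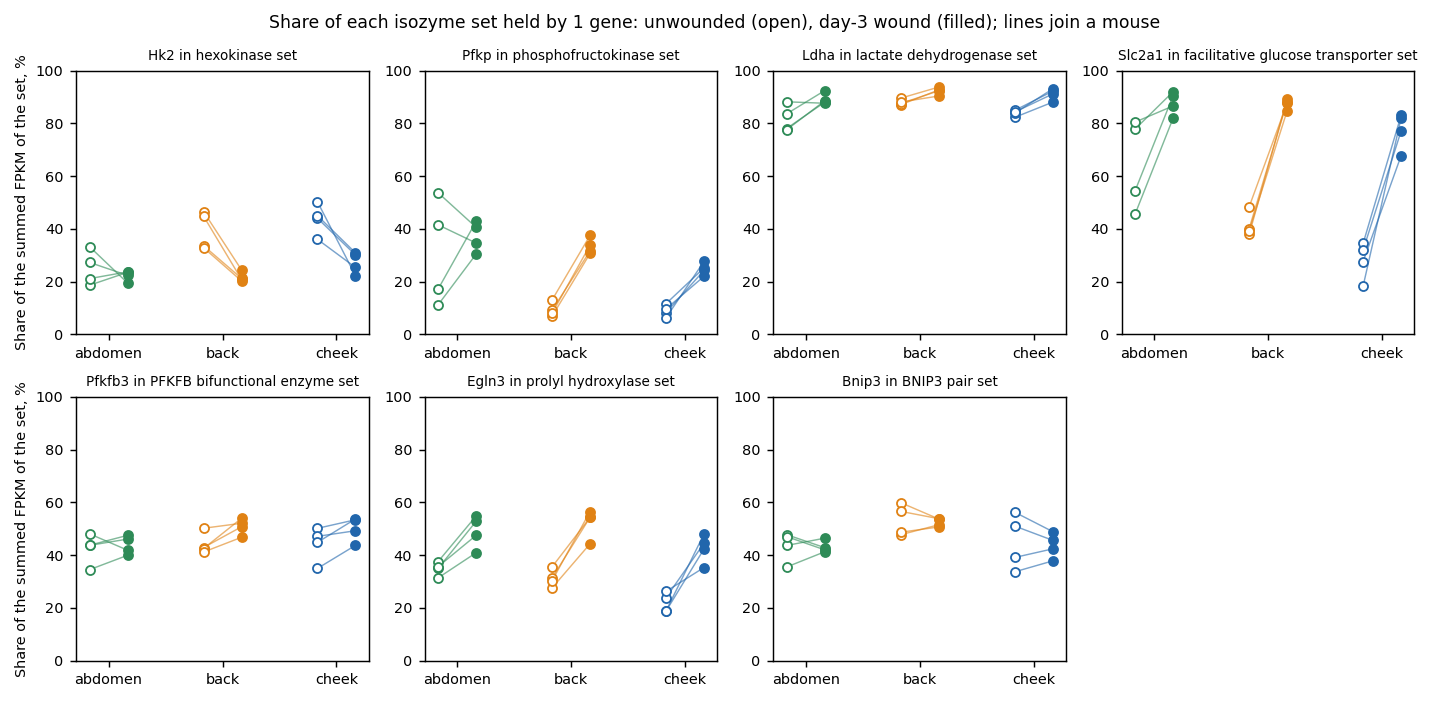
Share of each isozyme set held by the named gene (vertical axis, percent of the summed FPKM of the set) by site, open for unwounded and filled for wound, lines joining a mouse. Slc2a1 and Egln3 rise in all 12 mice, and the Pfkp share in unwounded abdomen spreads from 11.2 to 53.7%.

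Of 18 other glycolytic enzymes tested, 8 rose in the mean over sites and 5 fell, where 33.3% of all tested genes rose and 29.4% fell. The counts of the other pathway lists are read against these same shares, and the lists were chosen with earlier results of these data known. The largest rises were Eno1, the widely expressed enolase (1.54 log2, from a range of 105 to 156 FPKM to 273 to 501), and Hk3 (1.44), each in 12 of 12 mice (limma adjusted p = 5.97e-09 and 2.63e-07). The largest falls were Pgam2 (−1.75) and Eno3 (−1.54), the muscle isozymes of phosphoglycerate mutase and enolase, with limma adjusted p of 0.00135 and 0.00221. Both fell in 10 of 12 mice and rose in abdomen mice 2 and 3, where unwounded skin held 14.7 and 60.9 FPKM of Pgam2 against 319 to 764 in the unwounded libraries of back and cheek and in abdomen mice 1 and 4.

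All 6 other glucose and lactate transporters passed the test, 4 higher and 2 lower, where 62.7% of all tested genes passed in either direction. Slc2a3, the transporter of neurons and white blood cells, rose by 1.80 log2 and Slc2a6 by 1.66, whereas Slc2a4 (−1.78) and the monocarboxylate transporter Slc16a7 (−0.52) were lower. Of 4 other regulators of phosphofructokinase, Pfkfb4, a HIF-inducible relative of Pfkfb3, rose by 0.55, while Tigar (−0.91), Pfkfb1 (−0.86) and Pfkfb2 were lower.

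Of 10 genes for the entry of pyruvate into mitochondria, 9 fell and 0 rose in the mean over sites, against 29.4 and 33.3% of all genes. By site, 6 were lower at abdomen, 9 at back and 8 at cheek, and 1 was higher, at back. Pdk2, a kinase that inhibits pyruvate dehydrogenase, had the lowest effect at −1.34 (limma adjusted p = 4.08e-05), and Mpc1, a subunit of the pyruvate carrier, was at −0.85 (limma adjusted p = 2.14e-07) and lower in 12 of 12 mice. The list thus holds inhibitors as well as the carrier and the enzyme itself, and both kinds were lower. The median effect of the list was −0.63, beside 0.02 for all tested genes. Pdk2 spanned 14.9 to 105 FPKM in unwounded skin, and its effects at abdomen, back and cheek were −0.77, −1.86 and −1.39. Skeletal muscle markers fell in the wounds as well, and their part in the falls of this list was not tested.

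Of 7 other HIF subunits and oxygen sensors, 1 rose and 3 fell, where 33.3% of all genes rose and 29.4% fell. These are too few genes to read as a difference from those shares. Vhl, part of the ligase that degrades HIF-1α, was 0.32 log2 higher, and Hif1an, the asparagine hydroxylase that inhibits HIF (−0.50), and Arnt2, a partner subunit (−0.34), were lower. Of 18 other HIF target genes, 12 rose and 3 fell, with a median of 0.63, where 33.3% of all genes rose and 29.4% fell. Fam162a, a mitochondrial protein gene, rose by 1.59 (limma adjusted p = 2.97e-09) and Car12, a carbonic anhydrase, by 1.48, each in 12 of 12 mice. Vldlr, a lipoprotein receptor, was the lowest at −0.84, and Kdm3a, a histone demethylase, was at −0.15. Bnip3l, P4ha2 and Stc2 did not pass the test.

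Of 14 genes of VEGF and adrenomedullin signalling, 6 rose and 3 fell, near the shares of all genes (33.3 and 29.4%). Adm2, a peptide related to adrenomedullin, rose from 0 to 0.72 FPKM in unwounded skin to 1.21 to 3.92 in wounds, and Pgf, placental growth factor, rose by 1.08 log2 (limma adjusted p = 2.28e-06). Ramp1, a co-receptor of the related peptide CGRP, was lower by −1.49 (limma adjusted p = 1.13e-05) and Vegfb by −0.82. In none of these lists did a gene pass the F test for a difference between sites. Of the markers of other cell types, 5 of 6 endothelial genes rose and 1 fell, 6 of 6 adipocyte genes and 3 of 5 fibroblast genes fell, and no red blood cell gene passed. Their part in the results above was not tested.

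**Figure D5:**
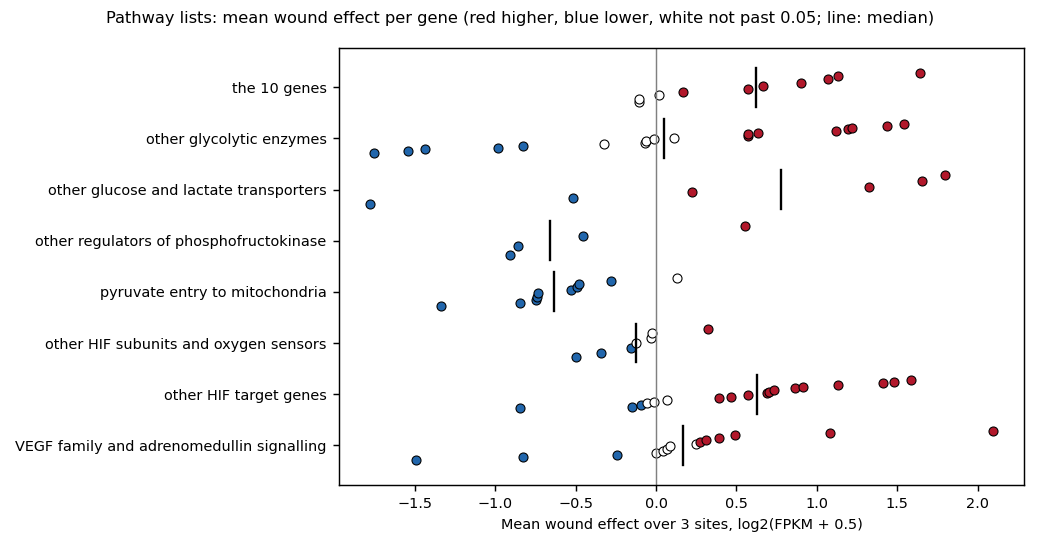
Mean wound effect over 3 sites on log2(FPKM + 0.5) (horizontal axis) of each tested gene of the pathway lists, coloured by call at a limma adjusted p under 0.05, with a line at the median of a list. The pyruvate entry list lies to the left with a median of −0.63, and the other HIF targets have a median of 0.63.

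Across the 24 libraries, which share the wound contrast, correlations among the members varied widely. Slc2a1 correlated with Pfkp and Egln3 at Pearson r = 0.90 each and with Hif1a at 0.78, on log2(FPKM + 0.5). Hk2 and Ldha correlated with each other at 0.83, but with Slc2a1 at −0.30 and −0.05. Adm correlated with Vegfa and with Hif1a at 0.82 and with Slc2a1 and Pfkp at 0.79, and Vegfa with Hif1a at 0.77. Bnip3 was closest to Ldha among the members, at 0.60.

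Outside the set, the gene most like Slc2a1 was Rbp2 (r = 0.967), followed by Gsto1 and Fam162a (0.960), and that most like Egln3 was Csta1 (0.920), followed by Fam162a (0.902). Pfkp was most like Pfkl, the liver-type phosphofructokinase (0.959), and Ldha most like the glycolytic genes Tpi1 (0.973), Gapdh (0.899) and Gpi1 (0.894). The genes nearest to Hk2 were the mitochondrial enzymes Got2 (0.933), Ogdh (0.911) and Prdx3 (0.910). Vegfa was nearest to the endothelial genes Kdr (0.934), Cdh5 (0.928) and Cd93 (0.907). Hif1a was most like Pld1 (0.976), Adm most like Stfa2l1 (0.927), Pfkfb3 most like Adgrf5 (0.823) and Bnip3 most like Colq (0.742). Each value describes 24 libraries from 12 mice and carries no test.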

How the data were processed

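RNA was measured in 24 libraries of whole skin from 12 mice. The deposited FPKM values come from a provider used by the authors, who mapped paired-end reads of 100 bases to GRCm38 with HISAT2 and Bowtie2 (2.2.5) and quantified them with RSEM (1.2.12), per the submitters' processing notes; the values are rounded to 2 decimals. A deposited table of the authors' DESeq2 log2 fold changes and adjusted p-values was not used. All 24 library columns were mapped by their labels, and 0 per-sample columns were left out.

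The log2(FPKM + 0.5) values were fitted with limma 3.58.1 (statmod 1.5.0, R 4.3.3), with trend and robust moderation. A gene entered a fit if 4 or more of its libraries reached 0.5 FPKM, which all 10 members did; p was adjusted by the Benjamini-Hochberg method over 14423 genes for wound effects, 13956 between unwounded sites and 14023 between wounds, with a threshold of 0.05. Wound effects came from all 24 libraries with a term per mouse. Wound and unwounded library of a mouse share the animal per the labels. Their deviations from group means correlated with a mean r of 0.322, 0.348 and 0.281 (abdomen, back, cheek). The lowest value for a mouse at abdomen was −0.030. Different mice had −0.116 to −0.0958, which follows largely from subtracting a mean of 4 and is no separate contrast. The labels give the same mouse numbers at each site. Equal numbers at different sites were read as different animals, since the authors describe the wounds of a mouse as made at a single site. The wound effects of the sites share a single estimate of the spread, drawn from all 12 mice. A p-value at a site with 4 animals therefore does not measure the spread at that site alone. Leaving out a mouse of a site can thus change a call at another site. The site comparisons within a state share an estimate of the spread in the same way. Isozyme shares were tested by exact permutation.

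Named genes were the 10 members, the 2 largest rises and 2 largest falls past the threshold in each pathway list, and the 3 genes most like each member; other genes named were chosen after their values were seen. The members and lists were chosen with earlier results of these data known. Relative depth could not be estimated beyond the rounding of the values (0.918 to 1.06). The models were also run on simulated data with independent normal noise and no outlying libraries. The outcome is not given here, and no result rests on it. The alternatives were other pseudocounts, filters, scalings, moderation and model terms, a threshold of 0.001, and each mouse left out in turn.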

Additional observations from a re-analysis of the deposited data

Results flagged for a closer look

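Of 60 groups of 4 libraries (10 genes, 3 sites, 2 states), 4 held a library whose gap to its nearest neighbour was above Dixon's critical value of 0.829 as a fraction of the range of the group, where chance gives about 1 group in 20. Hif1a was 41.7 FPKM in the back wound of mouse 4, below 56.4 to 58.5 in the other back wounds. Pfkfb3 was 10.52 FPKM in unwounded back of mouse 3, below 12.3 to 12.6 in the others. Ldha was 606.65 FPKM in the cheek wound of mouse 3, above 533 to 536. Bnip3 was 45.56 FPKM in the abdomen wound of mouse 4, below 58.1 to 60.0. No member had a wound effect that differed between sites by the test of that difference.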

How the results depend on the processing

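Under other pseudocounts, filters, scalings, moderation, model terms and sets of libraries, the members changed by wounding were 4 to 6 in abdomen, 6 to 7 in back, 6 in cheek and 6 to 7 in the mean over sites, against 6, 6, 6 and 7 as reported. A threshold of 0.001 left 1 in abdomen (Slc2a1) and 3 in cheek (Slc2a1, Pfkp and Egln3), and leaving out a mouse gave 4 to 6 in abdomen, 6 to 7 in back and 6 to 7 in cheek. Without the replicate block, that is without a term for each mouse, the counts were 6 in abdomen, back and cheek and 6 in the mean over sites, with Pfkfb3 lost. Comparisons between sites were less stable, and the cause was not tested. From unwounded back to cheek, median-ratio scaling and quantile normalization each gave 1 (Egln3) and a fit of all 24 libraries 3 (Slc2a1, Adm and Egln3), and that fit gave 2 from unwounded abdomen to back (Hk2 and Ldha). From abdomen to cheek wounds, median-ratio scaling gave 1 (Hk2), quantile normalization 2 (Hk2 and Vegfa) and the fit of all libraries 1 (Vegfa). From abdomen to back wounds, a block on the mouse number across sites, which pairs different animals, gave 0, as did the fit of all libraries. Without abdomen mice 2 and 3 and cheek mouse 4, chosen after seeing the data, there were 0 calls from unwounded abdomen to cheek, 0 from abdomen to back wounds and 0 from abdomen to cheek wounds. Leaving out each mouse in turn gave 0 to 4 for unwounded abdomen to cheek (0 without abdomen mouse 2 or 3 or cheek mouse 2), 0 to 1 for unwounded abdomen to back, 0 to 2 for abdomen to back wounds (0 without abdomen mouse 2 or 3 or back mouse 1, 2 or 3), 0 to 4 for abdomen to cheek wounds (0 without abdomen mouse 3 or cheek mouse 1) and 0 to 1 for the F test. FPKM values carry no counts, so counting error could not be set against these differences.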
